A study of Arabidopsis thaliana with 2 samples.

Results

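SPL and TCP transcription factor genes that carry microRNA target sites were followed in the embryo proper and the suspensor of the globular Arabidopsis thaliana embryo. The members are 9 loci chosen by identifier, of 20029 genes listed in either library. The 4 SPL genes are SPL2 (AT5G43270), SPL3 (AT2G33810), SPL10 (AT1G27370) and SPL11 (AT1G27360). The 5 TCP genes are TCP2 (AT4G18390), TCP3 (AT1G53230), TCP4 (AT3G15030), TCP10 (AT2G31070) and TCP24 (AT1G30210). Both libraries come from plants of the accession Ws-0 at the globular stage, with no treatment, from siliques of 38- to 46-day-old plants. The embryo proper, the apical sphere that becomes most of the seedling, and the suspensor, the file of cells that anchors and feeds it, were cut by laser from paraffin sections of seeds with embryos 24 to 32 μm across. Each region gave 1 library of material pooled over sections, made from 15 ng of total RNA that was then amplified, and the number of seeds pooled is not known here. With 1 library per region there is no replicate check and no test, and each value describes these libraries.

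SPL proteins bind DNA through an SBP domain. Those targeted by microRNA miR156 drive the passage from juvenile to adult growth and to flowering, and miR156 holds them down in young tissue. The TCP genes of the CIN class promote the exit from cell division in leaves and cotyledons, and those with a miR319 site are cut by that microRNA. In Arabidopsis embryos that cannot make microRNAs, SPL10 and SPL11 transcripts are known to build up early, and patterning of the embryo fails.

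The mature microRNAs are shown because their pairing to the members defines the set. They were read from RefSeq's TAIR10.1 assembly and annotation, written 5′ to 3′ with the seed, bases 2 to 8, in capitals. These and all other sequences given are those of the reference and were not checked in the Ws-0 plants. The sequence of miR156a-5p is shared by 6 annotated loci, and miR157a-5p starts with 1 further base, so its seed is shifted by that base.
miR156a-5p: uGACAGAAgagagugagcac
miR157a-5p: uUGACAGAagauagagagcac
miR319a: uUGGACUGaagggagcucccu

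In each SPL and TCP gene the window most complementary to the microRNA, with no gaps, was found in the annotated transcripts. The members' sites are shown 5′ to 3′ with each base that is not a Watson-Crick partner of the microRNA in capitals, those of SPL genes against miR156a-5p and those of TCP genes against miR319a.
SPL2: gugcucUcucucuucuguca
SPL10: gugcucUcucucuucuguca
SPL11: gugcucUcucucuucuguca
SPL3: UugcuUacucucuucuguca
TCP2: CAggGgGAcccuucaguccaa
TCP24: UAggGgGAcccuucaguccaa
TCP10: aAggGgUAcccuucaguccaG
TCP3: GAggGgUCcccuucaguccaU
TCP4: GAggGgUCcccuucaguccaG

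The sites of SPL2, SPL10 and SPL11 were identical, with 1 mismatch, and lay in the coding sequence of the last exon, exon 5. In TAIR10.1 they are at chr5:17360758-17360777, minus strand, for SPL2, chr1:9505541-9505560, minus strand, for SPL10 and chr1:9503618-9503637, plus strand, for SPL11. SPL10 and SPL11 are neighbours that face each other tail to tail, with 1088 bases and 0 genes between them. The site of SPL3, at chr2:14305878-14305897 on the plus strand, had 2 mismatches and lay in the 3′ UTR. The TCP sites were all coding and had 5 mismatches in TCP2, TCP10 and TCP24 and 6 in TCP3 and TCP4. They are at chr4:10163402-10163422 for TCP2, chr1:10628989-10629009 for TCP24, chr2:13221210-13221230 for TCP10 and chr1:19850522-19850542 for TCP3, on the minus strand, and at chr3:5063300-5063320 on the plus strand for TCP4. None of the 9 sites had a mismatch opposite the seed.

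Of 27558 protein-coding genes, 11, or 0.0399%, had a window with at most 3 mismatches to miR156a-5p and none opposite the seed, and these were the 11 SPL genes listed as miR156 targets. The 6 other SPL genes had 6 to 8 mismatches at best. For miR319a, 23 genes, or 0.0835%, had a window with at most 6 mismatches and none opposite the seed, the 5 TCP members among them. The 19 other TCP genes had 7 to 10 mismatches at best. A match of letters is a description and does not show cleavage.

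Levels are in RPKM, which divides a gene's reads by its length in kilobases and by the library's reads in units of 1000000. The whole reads behind them were recovered from the steps of the low values, and intervals are 95% exact intervals that cover counting error only, since amplified reads are not independent molecules. All 9 members came out within 0.1 of whole reads in both libraries. Fewer cells of a type and less RNA per cell cannot be told apart in such pooled material. In the SPL and TCP members a single read was worth 0.0623 to 0.199 RPKM in the embryo proper and 0.110 to 0.351 RPKM in the suspensor, so most of their levels rest on few reads.

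All 9 members were low. The highest level of a member was 5.485 RPKM for TCP24 in the embryo proper and 8.043 RPKM for TCP3 in the suspensor, at percentiles 39.3 and 45.4 of the genes listed in those libraries. Summed over the 9 genes, the members came to 13.1 RPKM in the embryo proper and 16.5 RPKM in the suspensor. Different genes led these sums: TCP24 and SPL10 stood highest in the embryo proper, and TCP3 and SPL3 in the suspensor.

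**Figure D1:**
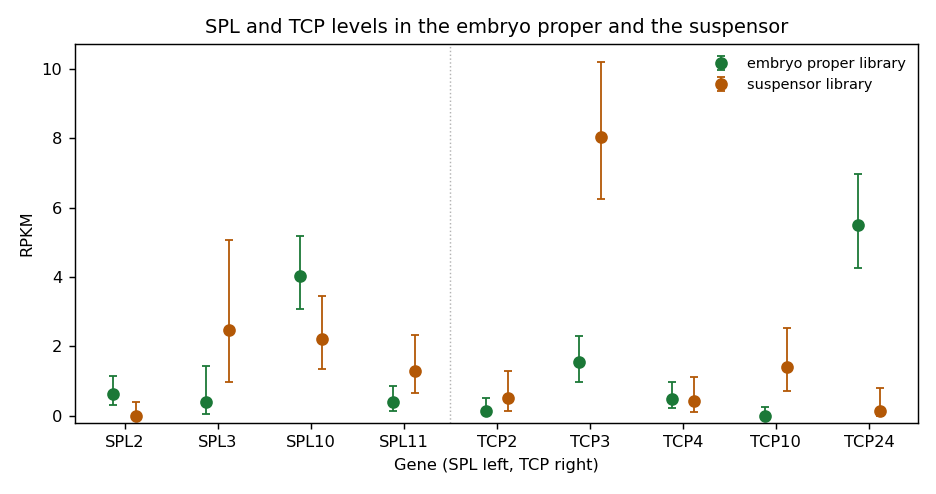
Level in RPKM of each SPL and TCP member in the embryo proper library (green) and the suspensor library (orange), with 95% exact Poisson intervals for counting error. TCP24 stands at 5.485 RPKM in the embryo proper and TCP3 at 8.043 RPKM in the suspensor, and no other member reaches that level in the same library.

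SPL10, which acts with SPL2 and SPL11 in leaf shape and shoot maturation, was the main SPL member of the embryo proper. It stood at 4.028 RPKM there, from 61 reads, and at 2.219 RPKM in the suspensor, from 19 reads. The ratio was 1.82-fold higher in the embryo proper, with an interval of 1.07 to 3.22. SPL10 alone held 73.9% of the summed level of the SPL members in the embryo proper.

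Its neighbour SPL11 had the opposite order. It stood at 0.399 RPKM in the embryo proper, from 6 reads, and at 1.294 RPKM in the suspensor, from 11 reads, 3.24-fold higher in the suspensor (1.10 to 10.7). The longest run of bases shared by the coding sequences of SPL10 and SPL11 was 43, and the sources used here do not say how reads with several matches were handled. The intervals of the ratios of these neighbours lie on opposite sides of 1, and both come close to it.

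SPL2, their close relative, was listed in the embryo proper library alone, at 0.624 RPKM from 10 reads. Against a floor of 3 reads in the suspensor, 0.331 RPKM, its embryo proper level was at least 1.88-fold higher. This bound leaves out the counting error of the 10 reads. The intervals of the SPL2 levels, 0.299 to 1.15 RPKM and 0 to 0.407 RPKM, overlap. SPL3, a small SBP protein that promotes flowering, stood at 0.397 RPKM in the embryo proper, from 2 reads, and 2.459 RPKM in the suspensor, from 7 reads. That is 6.19-fold higher in the suspensor, with an interval of 1.18 to 61.1. SPL3 was the most abundant SPL member of the suspensor library, but its interval of 0.989 to 5.07 RPKM takes in the level of SPL10 there.

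Among the TCP members, TCP3 and TCP24 differed in opposite directions. TCP3, an activator of the leaf genes AS1 and MIR164A, stood at 1.538 RPKM in the embryo proper, from 23 reads, and 8.043 RPKM in the suspensor, from 68 reads. It was 5.23-fold higher in the suspensor (3.22 to 8.79), the closest interval of the 9 members with a ratio of at least 2. TCP24, a relative of TCP2 in the same class, stood at 5.485 RPKM in the embryo proper, from 68 reads, and 0.143 RPKM in the suspensor, from 1 read. Its level was thus 38.4-fold higher on the embryo proper side (6.67 to 1541). TCP24 held 71.6% of the summed level of the TCP members in the embryo proper and TCP3 held 76.3% in the suspensor.

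TCP10, a close relative of TCP3 and TCP4, was listed in the suspensor library alone, at 1.409 RPKM from 11 reads. Against a floor of 3 reads in the embryo proper, 0.217 RPKM, it was at least 6.49-fold higher in the suspensor. TCP4, a promoter of cell maturation in leaves and an activator of LOX2, stood at 0.498 RPKM in the embryo proper, from 8 reads, and 0.441 RPKM in the suspensor, from 4 reads. The ratio of 1.13 had an interval of 0.303 to 5.13, so a difference was not detectable at this depth. TCP2 stood at 0.143 and 0.507 RPKM, from 2 and 4 reads, and its ratio of 3.55, higher in the suspensor, had an interval of 0.507 to 39.1.

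In the embryo proper the order was TCP24, SPL10, TCP3, SPL2, TCP4, SPL11, SPL3, TCP2 and TCP10. The intervals of TCP24 (4.26 to 6.95 RPKM) and SPL10 (3.08 to 5.17 RPKM) overlap, and both lie above that of TCP3 (0.975 to 2.31 RPKM). In the suspensor the order was TCP3, SPL3, SPL10, TCP10, SPL11, TCP2, TCP4, TCP24 and SPL2. The interval of TCP3 (6.25 to 10.2 RPKM) lies above that of each other member there, and those of SPL3, SPL10, TCP10 and SPL11 overlap.

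**Figure D2:**
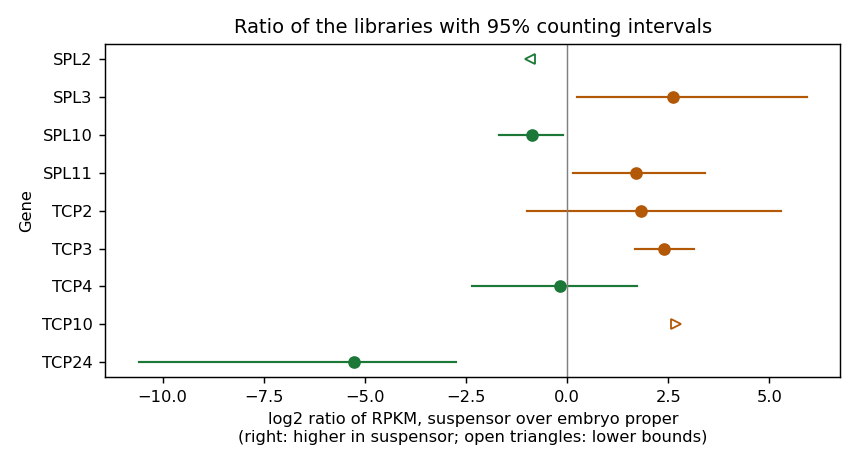
Log2 ratio of RPKM, suspensor over embryo proper, for each member, with 95% exact binomial intervals for counting error. Open triangles are lower bounds against a floor of 3 reads and leave out counting error. TCP3 (5.23-fold) lies to the right and TCP24 (38.4-fold) to the left, and the intervals of TCP2 and TCP4 cross the line of equal levels.

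A common scale was used for counts over genes, log2 of the ratio of RPKM + 1 so that differences between low levels are understated. On it, 3 of the 9 members, SPL3, TCP3 and TCP10, passed 2-fold toward the suspensor, against 24.8% of all 20029 listed genes. In the other direction 1 member, TCP24, passed 2-fold toward the embryo proper, against 19.6% of all genes. In either direction it was 4 of 9 members against 44.4%, so the count of members is near the background. The log2 ratio was 1.31 for SPL3, 1.83 for TCP3, 1.27 for TCP10 and −2.50 for TCP24, and SPL11 and SPL2, at 0.71 and −0.70, stayed within 2-fold. At 4-fold, TCP24 alone was called, against 7.05% of all genes for the embryo proper, 10.5% for the suspensor and 17.5% for either direction.

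The median log2 ratio was 0.40 over the 9 members and 0.12 over all listed genes, or 0.13 over the 16975 genes that reached 1 RPKM in either library. It was 0.04 for the 4 SPL members and 0.40 for the 5 TCP members. Of the 9 members, 6 had at least 1 RPKM in at least 1 library, and SPL2, TCP2 and TCP4 did not. With a pseudocount of 5 RPKM in place of 1, 0 members were 2-fold higher in the suspensor, and TCP3 was at 0.996 on the log2 scale. With 0.1 RPKM, 4 of the 6 members that reached 1 RPKM were 2-fold higher there. Below 1 RPKM, TCP2 then passed 2-fold toward the suspensor and SPL2 toward the embryo proper. The share of all genes past 2-fold also depends on the pseudocount. It is not given here for 0.1 and 5 RPKM, so these counts have no background beside them.

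The other miR156-targeted SPL genes were low or unlisted. Of 7, SPL15, a regulator of flowering and leaf initiation, passed 2-fold toward the embryo proper and 0 genes did so toward the suspensor. Over all listed genes it was 19.6% and 24.8%. SPL15 stood at 1.994 RPKM in the embryo proper, from 27 reads, and was not listed in the suspensor, at least 5.09-fold higher. SPL6 stood at 1.291 and 2.284 RPKM, from 20 reads in each library, with an interval for its 1.77-fold ratio of 0.903 to 3.46. SPL9 and SPL5 rested on at most 2 reads, and SPL4, SPL13A and SPL13B were listed in neither library. The coding sequences of SPL13A and SPL13B are identical, so reads from them cannot be told apart.

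Of the 6 SPL genes without a miR156 site, 5 exceeded 4.028 RPKM, the highest level of an SPL gene with a site, in at least 1 library. SPL8, the other one, rested on 1 read in the embryo proper, at 0.078 RPKM, and was unlisted in the suspensor. The level of 4.028 RPKM was at percentile 33.7 of the genes listed in the embryo proper, so most genes listed there exceed it too. SPL12, a large SPL protein of the same group as SPL1, had 13.2 RPKM in the embryo proper and 13.3 RPKM in the suspensor, a ratio of 1.01 (0.863 to 1.17). SPL1 stood at 10.4 and 8.62 RPKM, and SPL7, the copper-response regulator, at 5.73 and 7.76 RPKM. SPL14 was 2.73-fold higher in the suspensor (2.24 to 3.33), at 11.7 against 4.30 RPKM, and AT1G76580, an SBP-domain gene, was higher in the embryo proper, at 6.04 against 1.22 RPKM. Thus 1 of 6 passed 2-fold in each direction, and the median log2 ratio was −0.05. Over all listed genes 24.8% passed it toward the suspensor and 19.6% toward the embryo proper. The coding sequences of SPL14 and AT1G76580 share a run of 91 bases, and the handling of reads with several matches is not stated. AT1G76580 did not come within 0.1 of whole reads in either library. The 11 genes with a site held 18.3% of the summed level of the 17 SPL genes in the embryo proper, and 16.6% of that in suspensor tissue.

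**Figure D3:**
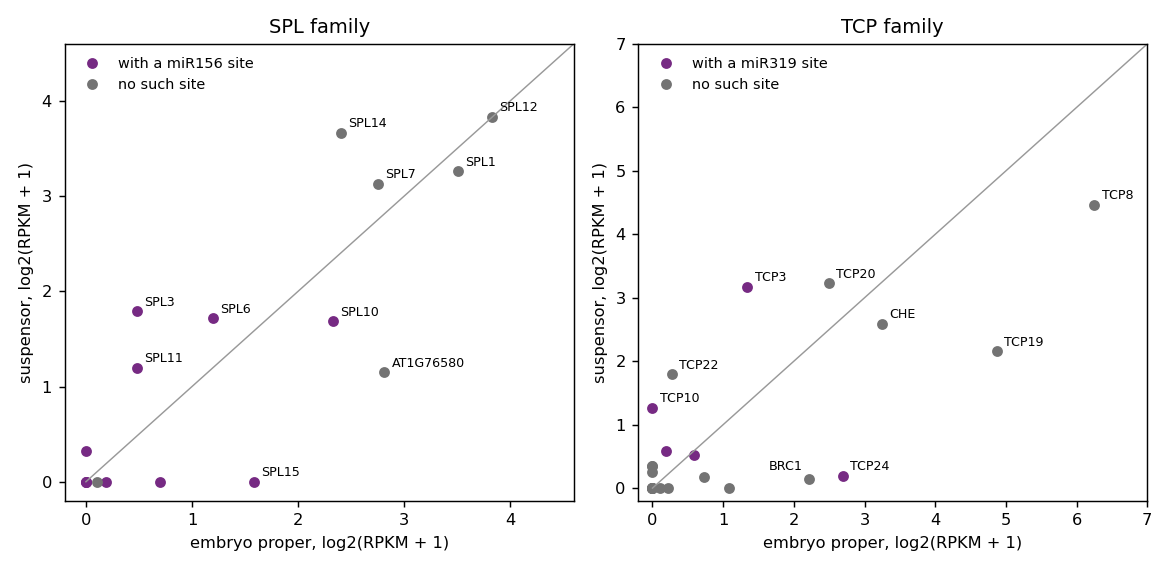
Levels of all SPL genes (left) and TCP genes (right) as log2(RPKM + 1), embryo proper on the horizontal and suspensor on the vertical axis, with a line of equal levels. Purple points have a miR156 or miR319 site and gray points do not, and CHE is a class I TCP gene. SPL12 and SPL1 lie close to the line, TCP8 and TCP19 below it, and TCP3 and TCP24 on opposite sides of it.

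TCP genes without a miR319 site were led by class I, whose members mostly promote growth. TCP8 had 75.2 RPKM in the embryo proper against 21.1 RPKM in the suspensor, a 3.56-fold ratio (3.05 to 4.19). TCP19 stood at 28.3 and 3.47 RPKM, 8.15-fold higher in the embryo proper (5.29 to 13.2). TCP22 went the other way, at 0.209 and 2.466 RPKM, from 3 and 20 reads. Of 13 class I genes, 3 passed 2-fold toward the embryo proper, TCP8, TCP19 and AT2G37000, against 19.6% of all listed genes. Toward the suspensor 1 passed it, against 24.8%, and 2 were listed in neither library.

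The CIN genes without a miR319 site, TCP5, TCP13 and TCP17, were unlisted in both libraries, whereas each of the 5 CIN genes with a site was listed in at least 1. The floor of 3 reads in the suspensor is 0.385 RPKM for TCP5 and 0.572 RPKM for TCP17, which is above the listed level of TCP24 there. BRC1, also called TCP18, a repressor of branching in the third class of the family, had 3.62 RPKM in the embryo proper against 0.107 RPKM in the suspensor. Over the whole TCP family, the 5 members with a site held 5.89% of the summed level in the embryo proper, and 20.3% of that in suspensor tissue. The sum over all 24 genes was 130 and 52.0 RPKM.

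**Figure D4:**
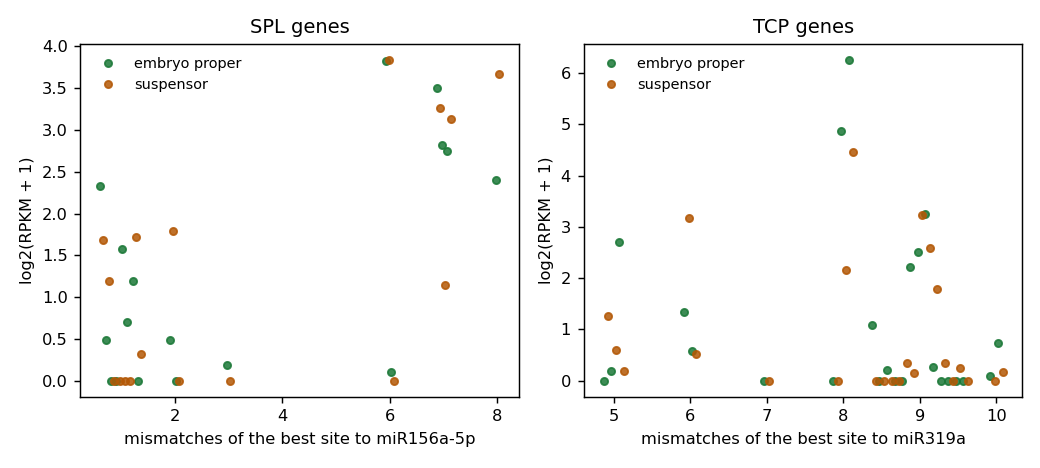
Level as log2(RPKM + 1) in the embryo proper (green) and the suspensor (orange) against the number of mismatches of the best site, to miR156a-5p for SPL genes (left) and to miR319a for TCP genes (right). Genes with the same number of mismatches are spread sideways. The highest SPL gene with 1 to 3 mismatches is SPL10, at 4.028 RPKM. Of the 6 with 6 to 8 mismatches, 5 exceed that in at least 1 library. The level of SPL10 is at percentile 33.7 of the genes listed in the embryo proper, most of which exceed it too. Of the 19 TCP genes without a site, 12 stay below 1 RPKM in both libraries, as do 2 of the 5 with a site.

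By distance between levels on the log2(RPKM + 1) scale over the 2 libraries, the family gene most like TCP24 was BRC1, at a distance of 0.49. SPL11 and TCP10 were nearest to each other, also at 0.49, SPL3 was nearest to TCP22 at 0.21, and SPL10 was nearest to AT1G76580 at 0.72. TCP3 had no close match, with TCP20 nearest at 1.16, at 4.66 and 8.39 RPKM. With 2 libraries this likeness says no more than that the levels are alike.

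The microRNAs themselves were not measured: the files list 1 locus annotated as a microRNA gene, of 327 in the annotation, and 0 of the 15 loci MIR156a to MIR156h, MIR157a to MIR157d and MIR319a to MIR319c. Transcripts of the microRNA machinery were present in both regions. Of 12 genes, 0 passed 2-fold in either direction, against 44.4% of all listed genes, with a median log2 ratio of −0.20. These 12 had at least 6.45 RPKM in both libraries, whereas the share over all listed genes takes in genes of few reads. DCL1, the enzyme that cuts microRNA precursors, stood at 13.3 and 15.1 RPKM in the embryo proper and the suspensor. Its partner HYL1 stood at 56.5 and 62.2 RPKM, and AGO1, the main effector, at 61.1 and 50.9 RPKM. CBP20, a cap-binding subunit, came nearest to the threshold, at 302 RPKM in the embryo proper and 150 RPKM in the suspensor. Its ratio without a pseudocount was 2.005 (1.86 to 2.17), just short of 2-fold on the common scale.

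Genes known to act downstream of SPL proteins in shoots, and the AP2-type factors targeted by miR172, were divided. Of 14, 2 passed 2-fold toward the suspensor and 2 toward the embryo proper, against 24.8% and 19.6% of all listed genes. The flowering genes LFY, AP1 and FUL were among 7 listed in neither library. SOC1, a flowering gene activated by SPL9, had 0.366 RPKM in the embryo proper against 2.588 RPKM in the suspensor, from 3 and 12 reads. DFR, an enzyme of pigment synthesis that SPL9 lowers, stood at 0.137 and 10.2 RPKM. AP2, at 13.0 RPKM in the embryo proper and 3.32 RPKM in the suspensor, had a 3.92-fold ratio (2.68 to 5.91), and TOE3 stood at 2.38 and 0.525 RPKM. TOE1 was 2.07-fold higher in the suspensor (1.72 to 2.50), just short of the threshold on the common scale.

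Of 14 targets and partners of TCP factors, 5 passed 2-fold toward the embryo proper and 1 toward the suspensor. Another 5 were listed in neither library. Over all listed genes, 19.6% passed 2-fold toward the embryo proper and 24.8% toward the suspensor. CUC3, among those higher in the embryo proper, is also counted as an embryo proper marker. The boundary genes CUC1, CUC2 and CUC3, which CIN-class TCP factors lower in leaves, were all higher in the embryo proper, with CUC2 at 4.95 against 0.987 RPKM and CUC1 at 6.575 RPKM and unlisted in the suspensor. AS1, a regulator of leaf polarity, had 34.5 RPKM in the embryo proper against 11.97 RPKM in the suspensor, a 2.88-fold ratio (2.31 to 3.63). DWF4, an enzyme of brassinosteroid synthesis, had 43.4 against 1.99 RPKM. BRM, a chromatin remodeller that acts with TCP4, was 2.15-fold higher in the suspensor (2.01 to 2.29), at 45.1 against 21.0 RPKM. LOX2, the classic TCP4 target, rested on 1 suspensor read and had none in the embryo proper, and IAA3 and SAUR65 were listed in neither library.

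On markers, 6 of 7 for the embryo proper and 6 of 6 for the suspensor passed 2-fold toward their own region, against 19.6% and 24.8% of all listed genes. The markers were chosen with earlier results of these data known, so they are no independent check of the labels. ATML1, an embryo proper marker at 79.2 against 39.7 RPKM in the suspensor, fell just short. Most markers of the neighbouring seed tissues were also higher in the suspensor, beside SPL3, SPL11, TCP3, TCP10, SOC1 and DFR. Of 9 endosperm markers, 8 passed 2-fold toward it, against 24.8% of all listed genes, PHE1 being the exception. Their sum was 351 RPKM against 22.7 RPKM. Of 11 seed coat markers it was 7, with 89.2 against 7.07 RPKM, and 4 of the 11 were unlisted in the embryo proper and 1, TT16, also in the suspensor. The part of these tissues in the levels of the members was not tested.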

How the data were processed

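The deposited values are RPKM per gene with 3 decimals, per the file headers, and no listed value is 0. Per the submitters' processing notes, the tools were HTSeq 0.6.1 and HISAT2 2.0.6, with TAIR10 as the build. Strand, the handling of reads with several matches and the gene lengths are not stated in what was used here. Symbols, coding lengths and sequences came from RefSeq's annotation of TAIR10.1. The files hold no positions, so all coordinates are from that assembly. Of 20029 identifiers, 154 had no match there. AT1G76580, AT5G41030 and AT2G37000 have no symbol there and are given by locus.

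Reads were recovered as the total at which low values, taken with the longest coding length, become whole. The totals were 12715904 reads for the embryo proper and 7189152 for the suspensor, with 96.9% and 97.0% of low values of single-model genes within 0.05 of a whole read. The search was tested on simulated data. Genes unlisted in a library count as 0, with a floor of 3 reads per library. Bounds against this floor do not cover counting error. Ratios with intervals are of RPKM without a pseudocount.

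Members and lists were chosen with earlier results of these data known. Named genes are the 9 members and, of the other lists, genes of at least 5 RPKM that differed 2-fold, the most abundant and those that close a family. Others are named for their role and were chosen after their values were seen. Python 3.11.15, scipy 1.17.1 and matplotlib 3.10.9 were used. Alternatives were pseudocounts, filters, scalings and thresholds.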

Additional observations from a re-analysis of the deposited data

How the results depend on the processing

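The sign of the log2 ratio of each of the 9 members was the same under the 3 alternative scalings; a pseudocount or a filter cannot change it. TCP24 was past 2-fold under these scalings and with both other pseudocounts. The median log2 ratio of the members, 0.40, was 1.32 with a pseudocount of 0.1 RPKM, 0.10 with 5 RPKM, 0.30 with libraries scaled to a sum of 1000000 and 0.27 with the median of all genes set to 0. The count of members higher in the suspensor, 3, was 0 with a pseudocount of 5 RPKM, 0 at 4-fold and 0 with a filter of 10 RPKM, which no member passes, so that the count in the embryo proper was 0 there too. The other gene lists were taken without those of cell type markers, but CUC3, also an embryo proper marker, counted as a TCP target. Over them, 5 genes were 2-fold higher for the suspensor and 13 for the embryo proper, beside 24.8% and 19.6% of all listed genes. These were 6 and 14 with a pseudocount of 0.1 RPKM, among genes that reach 1 RPKM in either library, and 1 and 7 with 5 RPKM. They were 3 and 6 with a filter of 10 RPKM, and 1 and 5 at 4-fold, beside 10.5% and 7.05% of all listed genes at 4-fold. The lists also hold genes listed in neither library, the 15 microRNA loci among them. Shares of all genes with the other pseudocounts and filters are not given here, so those counts have no background for the lists or the members. Upper quartile scaling moved the median of all genes from 0.13 to −0.02. No paired analysis was possible because each region has 1 library, so leaving out a replicate was not possible either. The depth also limits the members: all but SPL10 and TCP3 rest on fewer than 10 reads in at least 1 library, and an unlisted gene of their length may still be present below the floor of 3 reads.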

Other observations

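Outside the SPL and TCP families, the windows with the fewest mismatches to miR319a, 3, were in MYB33, MYB65 and MYB104, genes of the GAMYB-like group known as targets of the related miR159. Unlike the sites of the TCP members, each of these windows had a mismatch opposite the seed. Of all protein-coding genes, 0 had a window with at most 4 mismatches and none opposite the seed. MYB65 had levels of 2.697 RPKM (embryo proper) and 2.511 RPKM (suspensor). MYB33 stood at 0.704 and 2.581 RPKM, a log2 ratio of 1.07, and MYB104 was listed in neither library. These genes were chosen after the values had been seen.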
